A study of Oryza sativa with 4 samples.

Results

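Developing grain and root of the rice cultivar Lalat were compared locus by locus. The members are 2 of the 4 libraries of the series, the Lalat grain library and the Lalat root library, and every locus of the deposited expression tables was matched between them by its identifier. Of 31453 loci listed in any table, 28309 stood above 0 in at least 1 Lalat library, 24886 in grain, 23740 in root and 20317 in both. The comparison used the 17533 loci listed above 0 in both Lalat libraries that reached 1 FPKM in at least 1 of them, where FPKM is a fragment count scaled to transcript length and to the size of the library.

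The study grew the indica cultivars Sharbati and Lalat, which differ in the iron content of the brown rice, in pots of soil and manure in a net house under ambient conditions. Lalat is the cultivar with the lower grain iron, given as 7.80 ppm against 24.88 ppm in Sharbati. Long slender grains and roots were taken at mid grain filling, 15 days after panicle emergence, and poly(A) RNA was sequenced as paired-end libraries. Each cultivar and organ is 1 library, so there is no replicate, no test was made, and the spread between plants is unknown.

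All 4 groups share the growth conditions, the sampling time and the library kit, and no treatment or transgene is named in the labels. Whether a library pools several plants is not stated. A grain sample holds endosperm, embryo, maternal seed coat and possibly hull, and in such bulk tissue fewer cells of a type and less RNA per cell cannot be told apart. The Sharbati libraries serve below as reference values for each gene.

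A filling rice grain is chiefly a store. Its endosperm imports sucrose, converts it to starch in amyloplasts and deposits glutelins and prolamins in protein bodies, under transcription factors such as RPBF and RISBZ1. The root takes up water, nitrogen, silicon and metals; rice acquires iron both as a complex with secreted deoxymugineic acid and as ferrous iron. Nicotianamine, citrate and transporters of the YSL and ZIP families then carry metals through the plant.

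The organ labels were checked against marker lists. All 11 starch synthesis loci found in the tables and all 4 compared endosperm regulators stood higher in the library labelled grain. In the root marker list, 9 of 10 loci were above 0 in the library labelled root, as were 23740 of the 31453 loci listed in any table. Of the 9 loci, 5 were not above 0 in grain, against 14.4% of all loci above 0 in root. The silicon channel Lsi1 (LOC_Os02g51110) stood at 0.490 FPKM in grain and 88.0 FPKM in root. Of the root markers, RCc3, NRT2.3, HKT2;1, PT6 and NRT2.1 were low in Lalat root too, at 6.39, 0.991, 0.881, 0.727 and 0.379 FPKM, while the ammonium transporter AMT1;2 was not listed there. Transcripts of green tissue were scarce in both organs: the 63 listed loci for photosystem and light-harvesting proteins summed to 96.3 FPKM in grain and 135 FPKM in root.

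The libraries differed in how their FPKM were spread over loci. In Lalat grain the 10 highest loci held 29.2% of the summed FPKM and the 100 highest held 60.9%, against 8.61% and 24.1% in Lalat root. Loci at 1 FPKM or more numbered 12996 in grain and 18581 in root. The total number of fragments is unknown, because the tables hold no counts. Loci that appear to rest on a single fragment, marked by 1 shared deposited p-value with the partner library at 0, had a median of 0.0402 FPKM in Lalat grain, 0.105 FPKM in Lalat root and 1.07 FPKM in Sharbati root. That reading rests on the values alone. The 95th percentile of these loci was 0.301 FPKM in Lalat grain and 0.835 FPKM in Lalat root, and plain folds are given below only where both values lie above these levels. Of the root markers not above 0 in grain, PT6 and NRT2.1 lay below that root level. HKT2;1 and NRT2.3 lay little above it, and Lsi2 far above it at 32.5 FPKM.

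Most loci had higher FPKM in root. The median difference of the 17533 loci was -1.30 on the log2 scale of FPKM + 1, that is, FPKM + 1 was 2.47-fold higher in root. In plain FPKM the median root level was 340% of the grain level. The middle 50% of loci lay between -2.38 and -0.45. Only 2901 loci, or 16.5%, were above 0. The levels in both organs had a Spearman rho of 0.49 across loci, which share their 2 libraries and are not replicates. The 2 organ tables were normalized separately, and the part of library composition in this offset was not tested.

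With a difference of 4-fold or more as deposited (2 or more on the log2 scale), 582 loci (3.32%) were called higher in grain and 5580 (31.8%) higher in root. After subtracting the median difference, 1624 loci (9.26%) were called higher in grain and 2423 (13.8%) higher in root, so the share of calls higher in grain went from 9.44% to 40.1%. By percentile rank within each library, with a difference of 25 points or more, 2796 loci (15.9%) ranked higher in grain and 2944 (16.8%) higher in root. Counts of gene groups below are as deposited, to be read against 3.32% and 31.8%, and centred values are those after subtraction of the median.

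**Figure D1:**
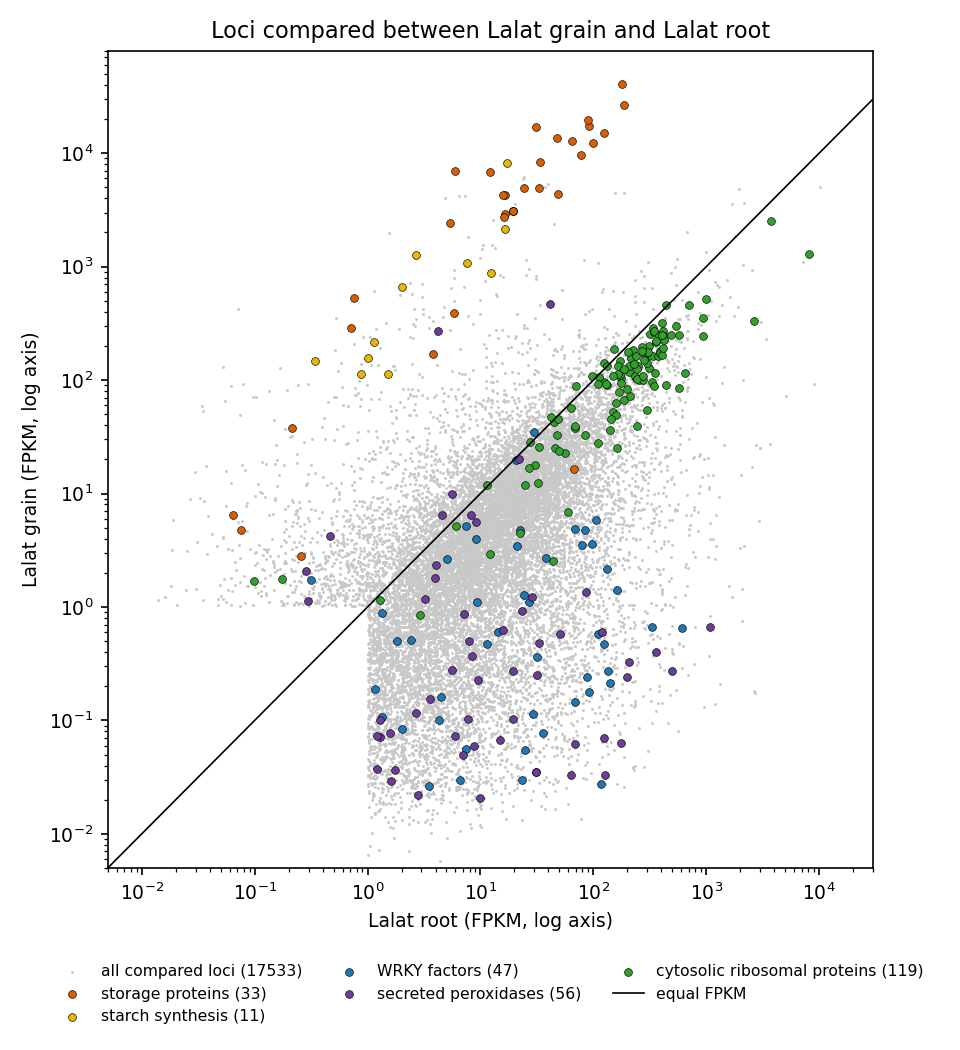
FPKM of each compared locus in Lalat grain (vertical, log axis) against Lalat root (horizontal, log axis), with loci of 5 kinds coloured and the line of equal FPKM. The grey cloud lies mostly below the line, starch loci and storage protein loci other than SSA2 lie above it, and WRKY factors and peroxidases lie mostly below it.

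Prolamins and seed allergens had the widest median FPKM differences towards grain among the lists. Rank gave another order. Median rank differences were 38.9 points for prolamins, 27.8 for allergens and 2S albumins and 24.9 for glutelins. Starch synthesis had 86.4 points and endosperm regulators 85.0. By rank 13 of 18 prolamins, 4 of 8 allergens and 2S albumins and 3 of 7 glutelins were called higher in grain, and 0 higher in root. Prolamins, the alcohol-soluble storage proteins of the endosperm, had 18 compared loci, of which 17 were called higher in grain. Their median difference was 7.58 as deposited and 8.88 centred. The 28 listed prolamin loci held 23.7% of the summed FPKM of Lalat grain and 0.528% of that of Lalat root. PROLM3 (LOC_Os05g26250), LOC_Os05g26359 and LOC_Os05g26400 share 1 set of values. Each is counted in these calls and sums, so they are not separate estimates.

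PROLM15 (LOC_Os05g26690) was the highest locus of Lalat grain, at 41102 FPKM, and stood at 181 FPKM in Lalat root, 8667 in Sharbati grain and 0 in Sharbati root. PROLM26 (LOC_Os07g10580) stood at 17132 FPKM in Lalat grain and 31.3 FPKM in Lalat root. PROLM29 (LOC_Os12g17010) had the widest difference towards grain among compared loci with an informative description, 6969 FPKM in grain and 6.0 FPKM in root, a log2 difference of 9.96 and a 1161-fold higher level in grain. All of these were far higher in grain than in root within Lalat. PROLM26 and its neighbour PROLM25 (LOC_Os07g10570) stood at 28.8 and 12.6 FPKM in Sharbati root, and both have a 0 for Sharbati grain. The grain lines of these 2 neighbours carry a deposited p-value of 1. Their Sharbati zeros may be failed estimates, so no direction is drawn from the zeros. The same mark makes the Lalat grain values of PROLM25 and PROLM26 less sure.

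The compared prolamin outside the call was PROLM27 (LOC_Os12g16880), at 2.84 FPKM in grain and 0.257 FPKM in root, a log2 difference of 1.61. PROLM19 (LOC_Os07g11900) and PROLM20 (LOC_Os07g11910) were low in both Lalat organs, at 4.80 and 6.42 FPKM in grain and at 0.0757 and 0.0647 FPKM in root. These 3 loci, which stood far below the rest of the family in Lalat grain, were chosen after their values were seen.

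Some storage protein loci could not be compared, because their grain values are missing or unsure. PROLM12 (LOC_Os05g26480) stood at 695 FPKM in Lalat root and was in neither grain table. PROLM9 (LOC_Os05g26377) and LOC_Os05g26386 shared 1 root value of 578 FPKM and were likewise in neither grain table. PROLM4, PROLM14 and PROLM16 (LOC_Os05g26350, LOC_Os05g26620 and LOC_Os05g26720) were listed at 0 in Lalat grain and stood at 208, 543 and 582 FPKM in Lalat root. Their zeros carry a deposited p-value of 1 beside 16881, 17906 and 17271 FPKM in Sharbati grain, and such a zero can be a failed estimate, so no direction is drawn from them. PROLM3 (LOC_Os05g26250), at 3080 FPKM in grain and 19.3 FPKM in root, shares its position and values with 2 other prolamin loci. Reads of these near-identical copies may have been split or assigned to 1 of them. PROLM9, LOC_Os05g26386, PROLM4, PROLM14, PROLM16 and PROLM3 were chosen after their values were seen.

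Glutelins, the most abundant rice seed proteins by mass, showed the same contrast where they could be compared. All 7 compared loci of 15 listed were called higher in grain, with a median difference of 6.91 as deposited and 8.22 centred. GluA2 (LOC_Os10g26060) stood at 12212 FPKM in grain and 100 FPKM in root, a 122-fold difference; its grain line carries a deposited p-value of 1 and a 0 in Sharbati grain. GluD1 (LOC_Os02g15090) stood at 9549 FPKM in grain and 77.5 FPKM in root, a 123-fold difference. GluB2 (LOC_Os02g15150) was lower in both, at 290 and 0.716 FPKM.

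The other 7 glutelins listed in root, among them GluA1, GluA3, GluB4 and GluB5, stood between 217 and 422 FPKM in Lalat root and were in neither grain table. No organ difference can be given for them. With such unlisted values set to 0, the median of the 11 storage proteins chosen by name went from 7.05 to -7.82, so the absence of these loci from the grain tables decides the sign of that list.

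Seed allergens and 2S albumins are small disulfide-linked seed proteins. Of 8 compared loci, 7 were called higher in grain, with a median difference of 7.47 as deposited and 8.77 centred, and the listed loci held 10.6% of the grain FPKM against 0.0499% in root. SSA1 (LOC_Os05g41970) was the second highest locus of Lalat grain, at 26816 FPKM, and stood at 185 FPKM in root. RAL6 (LOC_Os07g11510), a RA5-type allergen, stood at 19643 FPKM in grain and 89.6 FPKM in root. SSA2 (LOC_Os03g55730) differed from its family: it stood at 16.6 FPKM in grain and 67.7 FPKM in root, a log2 difference of -1.97. SSA3 (LOC_Os03g55734), chosen after its values were seen, stood at 207 FPKM in grain and was in neither root table.

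Some prolamin and seed allergen loci sit close together on the chromosomes, whereas the named glutelins lie elsewhere. On chromosome 7, between positions 5736874 and 6747163 of the deposited coordinates (build not given in the sources used here), 63 listed loci held 13.8% of the grain FPKM. Of the 41 compared loci there, 15 were called higher in grain and 9 higher in root. On chromosome 5, between 15330468 and 15530862, 17 listed loci held 14.3% of the grain FPKM, and all 5 compared loci were called higher in grain. Both stretches were chosen after their values were seen.

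Other small seed proteins were among the loci furthest towards grain. The lipid transfer-like proteins LTPL165 (LOC_Os07g12090), LTPL166 (LOC_Os07g11310) and LTPL163 (LOC_Os07g11630) stood at 4001, 4162 and 4220 FPKM in grain and at 4.90, 6.51 and 7.34 FPKM in root. The gibberellin-regulated GASA protein GASR6 (LOC_Os05g35690) stood at 1985 FPKM in grain and 1.55 FPKM in root, a 1281-fold difference. The cupin LOC_Os08g08960 stood at 420 FPKM in grain and 0.0716 FPKM in root. All 5 loci were among the abundant transcripts of grain and stood below 10 FPKM in root.

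Oil body and late embryogenesis genes had members on both sides, with more grain calls than the shares of all loci. The oleosins OLE18 (LOC_Os03g49190) and OLE16 (LOC_Os04g46200), which coat oil bodies of embryo and aleurone, stood at 92.0 and 134 FPKM in grain and at 0.299 and 1.72 FPKM in root. Of 31 compared late embryogenesis, dehydrin and oil body loci, 9 (29%) were called higher in grain and 7 (22.6%) higher in root. The shares of all loci were 3.32% and 31.8%. After centring the calls were 15 (48.4%) and 4 (12.9%), against 9.26% and 13.8%, and by rank 17 and 4. The median was 0.66 as deposited and 1.96 centred. It turned to -1.04 when 5 FPKM in at least 1 library was required, where that of all loci was -1.58. With 10 FPKM required in both libraries it was -1.59, against -0.79 for all loci. The dehydrin LOC_Os03g45280 lay on the root side, at 4.00 FPKM in grain and 1146 FPKM in root.

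Starch synthesis genes differed between the organs as a group. All 11 compared loci were called higher in grain, as deposited, centred and by rank, with a median difference of 6.78 as deposited, 8.09 centred and 86.4 percentile points by rank. Their summed level was 15036 FPKM in Lalat grain and 63.4 FPKM in Lalat root. The debranching enzyme pullulanase is not analysed here.

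Granule-bound starch synthase Wx (LOC_Os06g04200, chromosome 6, 1765621 to 1770656), which makes amylose, stood at 8276 FPKM in Lalat grain and 17.3 FPKM in Lalat root, a 477-fold difference. It stood at 2905 FPKM in Sharbati grain and 5.14 FPKM in Sharbati root. Wx was high in grain and low in root in both cultivars. Its grain line carries a deposited p-value of 1 beside these unequal values, a mark that also stands on zeros that may be failed estimates, so its grain levels and the 477-fold difference are less sure than those of the other starch loci.

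Branching enzymes introduce the branch points of amylopectin. BEIIb (LOC_Os02g32660) stood at 1258 FPKM in grain and 2.70 FPKM in root, a 465-fold difference. BEI (LOC_Os06g51084) stood at 2128 FPKM in grain and 16.5 FPKM in root, a 129-fold difference. Both were more than 100 times higher in grain.

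ADP-glucose, the substrate of starch synthases, is made by ADP-glucose pyrophosphorylase in the cytosol of the endosperm and carried into the amyloplast by BT1. The subunit genes AGPL2 (LOC_Os01g44220) and AGPS2 (LOC_Os08g25734) stood at 1081 and 881 FPKM in grain and at 7.60 and 12.3 FPKM in root. The deposited description of AGPS2 names it a large subunit. BT1 (LOC_Os02g10800) stood at 663 FPKM in grain and 2.01 FPKM in root, a 330-fold difference. Synthesis and import of the substrate thus had the same organ order as the synthases.

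The soluble starch synthases lay lower in both organs. SSI (LOC_Os06g06560), SSIIa (LOC_Os06g12450) and SSIIIa (LOC_Os08g09230) stood at 114, 147 and 112 FPKM in grain and at 0.874, 0.342 and 1.52 FPKM in root. The isoamylase ISA1 (LOC_Os08g40930) stood at 218 and 1.15 FPKM, and the plastidial phosphorylase PHOL (LOC_Os03g55090) at 158 and 1.01 FPKM. All 11 loci had higher FPKM in grain, as did 16.5% of all compared loci. Their lowest grain value was 112 FPKM, of SSIIIa, and their highest root value 17.3 FPKM, of Wx. These bounds are values of different genes in 1 library per organ.

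Sucrose genes, in contrast, divided between the organs. Of 8 compared loci, 2 were called higher in grain and 4 higher in root, with a median of -1.71 as deposited and -0.41 centred. Sucrose synthases cleave sucrose to UDP-glucose and fructose. SUS3 (LOC_Os07g42490) stood at 123 FPKM in grain and 1.75 FPKM in root, and SUS4 (LOC_Os03g22120) at 379 and 10.0 FPKM. SUS1 (LOC_Os03g28330) had the opposite order, at 3.58 FPKM in grain and 420 FPKM in root, a 117-fold difference. SUS2 (LOC_Os06g09450) was abundant in both, at 118 and 306 FPKM, and was not called. The 4 sucrose synthases therefore included 2 grain genes, 1 root gene and 1 that was high in both Lalat libraries.

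SUS1 had the other order in Sharbati, at 16.2 FPKM in grain and 3.67 FPKM in root. The cell wall invertase CIN1 (LOC_Os02g33110) stood at 1.79 FPKM in Lalat grain and 38.5 FPKM in Lalat root. The sucrose transporter SUT1 (LOC_Os03g07480), which loads sucrose across membranes, stood at 4.21 and 128 FPKM. Both were called higher in root.

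SWEET proteins are sugar exporters and uniporters. SWEET4 (LOC_Os02g19820) stood at 27.7 FPKM in grain and 118 FPKM in root, called higher in root as deposited but not after centring, where its difference was -0.76. SWEET14 (LOC_Os11g31190) stood at 6.28 and 2.32 FPKM, and SWEET11 (LOC_Os08g42350), a gene of grain sugar supply, at 13.2 FPKM in grain with no listing in root. Within grain the 3 SWEET loci stood below every compared starch locus, whereas SWEET4 in root stood above all of them.

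**Figure D2:**
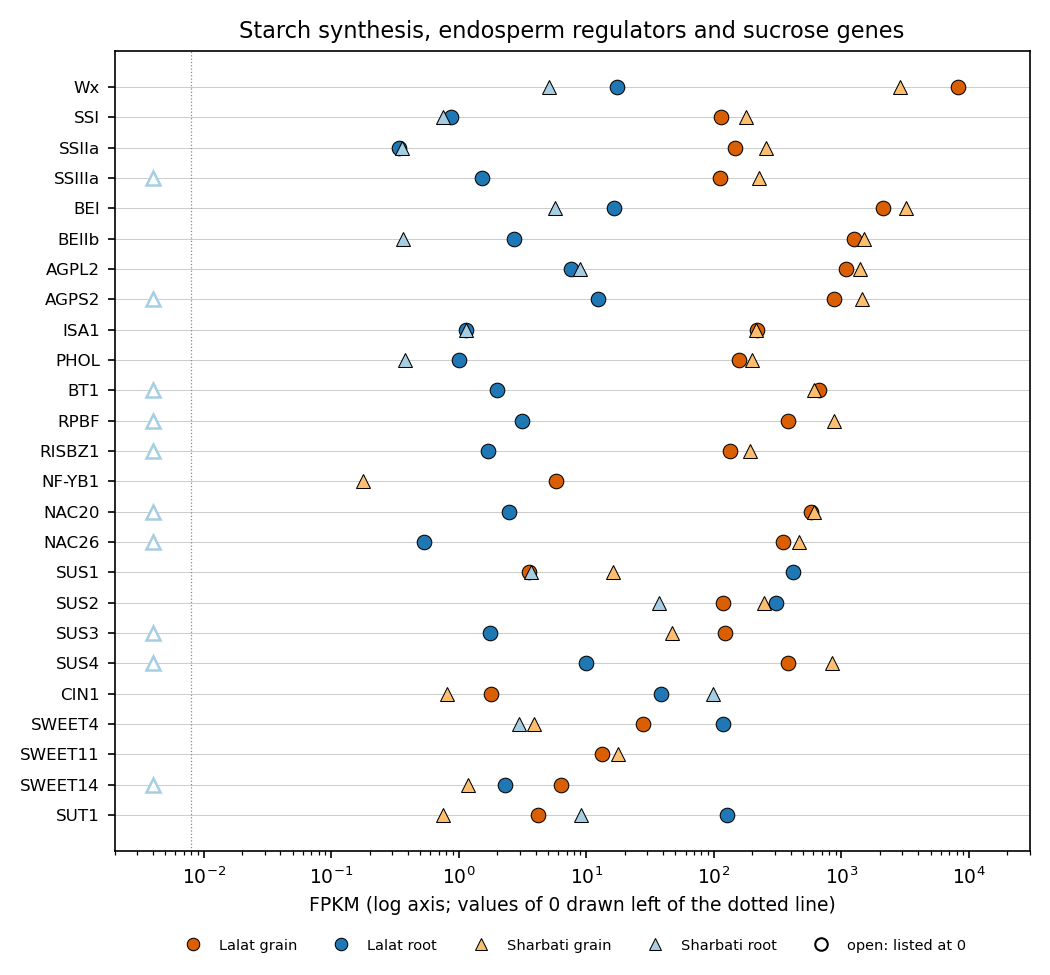
FPKM (log axis) of starch synthesis genes, endosperm regulators and sucrose genes in the 4 libraries; circles are Lalat, triangles Sharbati, and open symbols mark a value listed at 0. Starch genes and regulators are separated by organ in both cultivars except where a gene is not listed in root, whereas SUS1, CIN1, SWEET4 and SUT1 are higher in Lalat root.

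Endosperm regulators followed the starch and storage genes. All 4 compared loci were called higher in grain, with a median difference of 6.96 as deposited and 8.26 centred. NAC20 (LOC_Os01g01470) and NAC26 (LOC_Os01g29840), activators of starch and storage protein genes, stood at 574 and 351 FPKM in grain and at 2.47 and 0.530 FPKM in root. RPBF (LOC_Os02g15350), a Dof factor that binds the prolamin box, stood at 381 and 3.11 FPKM, and RISBZ1 (LOC_Os07g08420), a bZIP factor that binds the GCN4 motif, at 134 and 1.69 FPKM. NF-YB1 (LOC_Os02g49410), an endosperm NF-Y subunit, stood at only 5.80 FPKM in grain and was not listed in root. A locus described as a histone-like transcription factor, LOC_Os01g24460, stood at 124 FPKM in Lalat grain and 126 in Sharbati grain and was in neither root table; it was chosen after its values were seen.

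Further transcription factors without a symbol were abundant in grain. Of 62 compared NAC loci, 8 were called higher in grain and 36 higher in root. LOC_Os02g12310 stood at 2156 FPKM in grain and 16.8 FPKM in root, and LOC_Os11g31330 at 1430 and 10.3 FPKM, both above NAC20 in grain. Of 104 compared MYB loci, 6 were called higher in grain and 54 higher in root, and LOC_Os01g74590 led the grain side at 300 and 2.64 FPKM. The AP2 locus LOC_Os09g26420 stood at 355 FPKM in grain and 30.6 FPKM in root, among 2 grain and 58 root calls in 85 loci.

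Folding enzymes of the endoplasmic reticulum were high in both organs. The chaperone BiP1 (LOC_Os02g02410) stood at 593 FPKM in grain and 183 FPKM in root, a log2 difference of 1.70. PDIL1-1 (LOC_Os11g09280), the disulfide isomerase needed for proglutelin sorting, stood at 909 and 263 FPKM, a log2 difference of 1.78. PDIL2-3 (LOC_Os09g27830) was nearly level at 109 and 102 FPKM. None of these 3 was called as deposited, whereas after centring BiP1 and PDIL1-1 were. PDIL1-4 (LOC_Os02g01010) passed the call as deposited at 234 and 20.3 FPKM, the 1 grain call among 14 compared disulfide isomerases, whose median was -1.14 as deposited and 0.16 centred.

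Heat shock proteins and chaperones gave 4 grain and 30 root calls in 123 loci, with a median that was -1.14 as deposited and 0.17 centred. The DnaK locus LOC_Os12g14070 was on the grain side at 456 and 34.0 FPKM, and the DnaK locus LOC_Os03g16860 on the root side at 1.57 and 387 FPKM. The family thus held members with opposite organ differences and no common direction that outlasted centring.

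The root library was led by other gene classes. A plastocyanin-like locus, LOC_Os11g24140, was its highest at 14243 FPKM and was in neither grain table. Among compared loci with an informative description, the jacalin-like lectin LOC_Os01g24710 (chromosome 1) had the widest root difference, 0.175 FPKM in grain and 2725 FPKM in root, -11.18 on the log2 scale. The transferase LOC_Os01g08380 stood at 0.139 and 1184 FPKM and the receptor-like locus LOC_Os11g31540 at 0.211 and 1335 FPKM. In Sharbati root these loci stood at 96.9, 1098 and 4.86 FPKM, so the transferase was nearly level between the Lalat and Sharbati roots, whereas the lectin and the receptor-like locus stood far lower in Sharbati root.

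Bowman-Birk inhibitors, which block trypsin-like proteases and are annotated as bran inhibitors, were all on the root side. All 6 compared loci were called higher in root, with a median difference of -7.31 as deposited and -6.01 centred. BBTI4 (LOC_Os01g03340) stood at 0.752 FPKM in Lalat grain and 2072 FPKM in Lalat root, a 2755-fold difference. BBTI7 (LOC_Os01g03390) stood at 11.5 and 1048 FPKM, and BBTI12 (LOC_Os01g04050) at 0.276 and 421 FPKM. BBTI5 (LOC_Os01g03360) stood at 0.961 and 403 FPKM in Lalat but at 41.0 FPKM in grain and 13.1 FPKM in root in Sharbati.

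Defence and stress transcription factors were mostly on the root side. Of 47 compared WRKY loci, 35 were called higher in root and 0 higher in grain, with a median of -3.48 as deposited and -2.18 centred. After centring 25 were higher in root and 1 higher in grain. WRKY71 (LOC_Os02g08440) stood at 0.648 FPKM in grain and 614 FPKM in root, a 947-fold difference. WRKY53 (LOC_Os05g27730) stood at 0.670 and 334 FPKM. WRKY89 (LOC_Os08g17400) was the highest WRKY of the grain and nearly level, at 34.8 and 29.7 FPKM.

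AP2/ERF factors, which include the ethylene response factors, had a median of -3.85 as deposited and -2.55 centred over their 85 loci. LOC_Os05g41780 stood at 19.6 FPKM in grain and 580 FPKM in root. Root NAC loci included LOC_Os03g60080, a NAC domain-containing protein 67, at 9.74 and 678 FPKM, and LOC_Os07g12340, with the same description, at 0.576 and 471 FPKM. Among MYB loci, LOC_Os05g37060 stood at 20.3 and 954 FPKM and LOC_Os01g74410 at 0.166 and 482 FPKM. NAC, MYB and AP2/ERF loci thus included members called higher in each organ, whereas no WRKY locus was called higher in grain as deposited.

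Pathogenesis-related genes showed 23 root and 0 grain calls in 40 loci, with a median of -2.24 as deposited and -0.94 centred. The Bet v I family locus LOC_Os03g18850 stood at 11.0 FPKM in grain and 1067 FPKM in root. The chitinase CHIT12 (LOC_Os08g41100) was the highest of its list in grain, at 142 FPKM against 86.4 FPKM in root, and was not called. Thionin-type peptides were found on both sides: THION18 (LOC_Os01g41140) stood at 172 FPKM in grain and was not listed in root, and the thionin-like LOC_Os07g25050 stood at 921 FPKM in root and was not listed in grain. Both thionin loci were chosen after their values were seen.

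Secreted peroxidases, which oxidise phenolics in the cell wall, had 33 root and 2 grain calls in 56 loci and a median of -2.86 as deposited and -1.56 centred. LOC_Os03g13210 stood at 0.666 FPKM in grain and 1088 FPKM in root, a 1634-fold difference. LOC_Os10g02070, chosen after its values were seen, stood at 1065 FPKM in root and was in neither grain table. The grain calls were LOC_Os03g55420, at 464 and 41.6 FPKM, and LOC_Os01g10850, at 272 and 4.22 FPKM. Among phenylpropanoid genes, with 17 root and 2 grain calls in 30 loci, the phenylalanine ammonia-lyase LOC_Os02g41630 stood at 26.9 and 1424 FPKM.

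Aquaporins, the water channels, had 14 root calls and 1 grain call in 22 loci, with a median of -3.15 as deposited and -1.84 centred. LOC_Os07g26630 stood at 1.64 FPKM in grain and 316 FPKM in root. The grain call was LOC_Os10g35050, at 1445 FPKM in Lalat grain and 13.4 FPKM in Lalat root. In Sharbati it stood at 1212 and 0.941 FPKM. LOC_Os07g26690 was high in both Lalat organs, at 642 and 334 FPKM. Summed over the list, aquaporin FPKM were close, 2611 in grain and 2971 in root, because a few loci carried the grain level.

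Core histones had 38 root and 0 grain calls in 48 loci, with a median of -4.20 as deposited and -2.89 centred, and 30 root calls after centring. The core histone LOC_Os02g45940 stood at 0.550 FPKM in grain and 364 FPKM in root. The histone H3 locus LOC_Os03g27310 was high in both, at 461 and 1393 FPKM. Cyclins and kinesins, other genes of cell division, had 29 root and 2 grain calls in 107 loci and a centred median of -0.03. The histones thus lay further towards root than the cyclin and kinesin list did; the difference between the lists was not tested.

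Transport of nutrients other than metals leaned to root as deposited. Of 36 nitrate, potassium, phosphate and sulfate transporters, 20 were called higher in root and 1 higher in grain, with medians of -2.10 as deposited and -0.80 centred. The phosphate transporter LOC_Os02g56510 stood at 0.278 FPKM in grain and 85.0 FPKM in root, and the sulfate transporter LOC_Os01g41050, the grain call, at 29.3 and 1.52 FPKM. Of 86 peptide and amino acid transporters, 39 were called higher in root and 6 higher in grain as deposited, and 15 each way after centring. LOC_Os12g08130, an amino acid transporter, stood at 1.05 and 208 FPKM, and the peptide transporter LOC_Os01g55600 at 20.6 and 1.10 FPKM.

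Detoxification genes lay on the root side as deposited. Of 89 cytochrome P450 loci, 43 were called higher in root and 1 higher in grain, with medians of -1.88 as deposited and -0.58 centred. After centring 23 (25.8%) were called higher in root and 5 (5.62%) higher in grain, against 13.8% and 9.26% of all loci. That grain locus, LOC_Os02g09190, stood at 239 FPKM in grain and 2.38 FPKM in root. Glutathione S-transferases, which conjugate toxic compounds to glutathione, had 25 root and 0 grain calls in 39 loci and a median of -2.36 as deposited and -1.05 centred. After centring 12 (30.8%) were called higher in root and 2 (5.13%) higher in grain. Their median turned to 0.26 when 10 FPKM was required in both libraries.

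Cellulose synthases build the main polymer of the wall. Of 24 cellulose synthase and related loci, 9 were called higher in root and 1 higher in grain, with a median that was -1.21 as deposited and 0.09 centred. The grain locus, the secondary wall gene CESA4 (LOC_Os01g54620), stood at 23.5 and 1.11 FPKM.

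**Figure D3:**
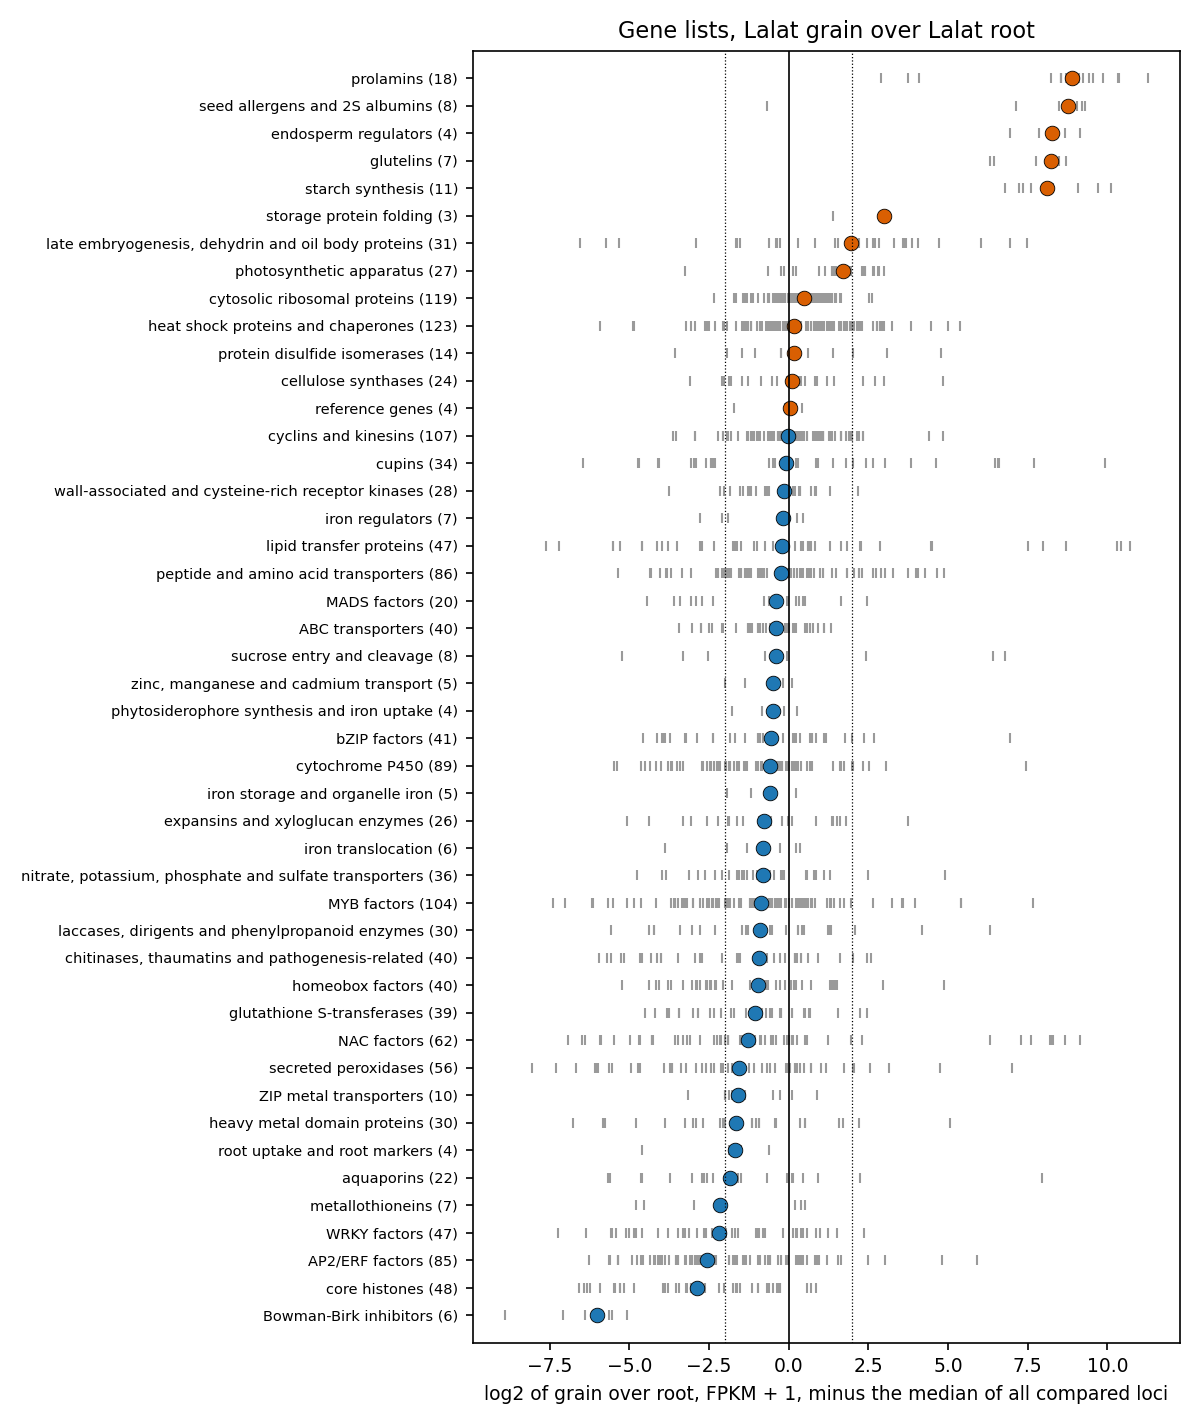
Log2 difference between Lalat grain and Lalat root for each gene list after subtraction of the median of all compared loci; ticks are loci, dots are list medians, numbers in brackets are compared loci, and dotted lines mark a 4-fold difference. Prolamins, allergens, endosperm regulators, glutelins and starch genes have medians above 8, and Bowman-Birk inhibitors have the lowest, -6.01.

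Metal binding and transport were examined because the cultivars were chosen for grain iron. Metallothioneins, cysteine-rich metal-binding proteins, had 4 root and 0 grain calls in 7 loci, with medians of -3.46 and -2.16. LOC_Os01g74300 stood at 73.1 FPKM in Lalat grain and 5057 FPKM in Lalat root, a 69.2-fold difference, but at 11.5 and 51.6 FPKM in Sharbati. Heavy metal domain proteins had 21 root calls and 1 grain call in 30 loci. The grain call, LOC_Os04g32030, was abundant at 1144 FPKM in grain against 83.0 FPKM in root, and the root locus LOC_Os02g32814 stood at 4.30 and 702 FPKM.

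Regulators of the iron deficiency response were all lower in grain in FPKM, and close to the whole distribution after centring. Of 7 compared loci, 3 were called higher in root, with a median of -1.49 as deposited and -0.18 centred. IRO2 (LOC_Os01g72370, chromosome 1, 41971443 to 41978408), a bHLH activator of phytosiderophore genes, stood at 0.0270 FPKM in Lalat grain and 16.4 FPKM in Lalat root. In Sharbati it was listed at 0 in grain and stood at 4.30 FPKM in root. PRI1 (LOC_Os08g04390), an upstream bHLH activator, stood at 10.5 and 119 FPKM, and the NAC regulator IDEF2 (LOC_Os05g35170) at 26.7 and 254 FPKM. The grain value of IRO2 lay within the range of loci that appear to rest on a single fragment, whereas PRI1 and IDEF2 were measured well above it in both organs.

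The other iron regulators differed less. IDEF1 (LOC_Os08g01090), a B3 domain regulator, stood at 44.2 FPKM in grain and 92.9 FPKM in root. IRO3 (LOC_Os03g26210), a repressor, stood at 10.6 and 30.2 FPKM. The ubiquitin ligases HRZ1 (LOC_Os01g49470) and HRZ2 (LOC_Os05g47780), which restrain the response, stood at 5.71 and 4.41 FPKM in grain and at 11.1 and 14.1 FPKM in root. Their log2 differences, from -0.85 to -1.49, lay near the median of all loci.

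Iron storage and organelle genes stood at middle to low levels in Lalat grain. The 5 storage and organelle loci had 2 root and 0 grain calls as deposited, 0 of either after centring, and medians of -1.89 and -0.59. FER1 (LOC_Os11g01530) and its close copy FER2 (LOC_Os12g01530), ferritins that may share reads, stood at 3.43 and 3.63 FPKM in grain and at 15.4 and 16.0 FPKM in root. The vacuolar iron transporters VIT1 (LOC_Os04g38940) and VIT2 (LOC_Os09g23300) stood at 0.288 and 0.745 FPKM in grain and at 6.30 and 15.4 FPKM in root. The mitochondrial importer MIT (LOC_Os03g18550) stood at 4.34 and 10.1 FPKM. In Lalat grain FER1, FER2 and MIT lay above the median of compared loci, 3.06 FPKM, and VIT1 and VIT2 below it. In FPKM, all 5 were lower in grain than in root. Of all compared loci, only 16.5% were higher in grain.

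Phytosiderophore and uptake genes were scarce in both organs. Of 9 loci in the tables, 4 could be compared, 2 of them called higher in root. The ferrous transporter IRT1 (LOC_Os03g46470) stood at 0.0985 FPKM in grain and 8.34 FPKM in root. Nicotianamine synthases make the metal chelator from which deoxymugineic acid is built: NAS3 (LOC_Os07g48980) stood at 0.211 and 4.37 FPKM, NAS1 (LOC_Os03g19427) at 0.283 and 0.775 FPKM, and NAS2 (LOC_Os03g19420) at 1.71 FPKM in grain with no listing in root. The later enzymes NAAT1 (LOC_Os02g20360) and DMAS1 (LOC_Os03g13390) stood at 1.60 and 2.73 FPKM in grain and at 4.39 and 9.21 FPKM in root. The ferric reductase FRO1 (LOC_Os04g36720) had the opposite order, at 2.18 FPKM in grain and listed at 0 in root. TOM1 (LOC_Os11g04020), the exporter of deoxymugineic acid, stood at 0.707 FPKM in root and was not listed in grain, and YSL15 is not analysed here.

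Genes of long-distance metal movement had 3 root and 0 grain calls in 6 loci as deposited and 1 root call after centring. FRDL1 (LOC_Os03g11734), which exports citrate into the xylem, stood at 0.157 FPKM in grain and 41.3 FPKM in root, and was the root call after centring. YSL16 (LOC_Os04g45900), a copper- and iron-nicotianamine transporter, stood at 0.122 and 9.56 FPKM, and YSL6 (LOC_Os04g32050), a manganese-nicotianamine transporter, at 3.74 and 28.3 FPKM. YSL2 (LOC_Os02g43370), which carries iron- and manganese-nicotianamine in the phloem, differed little, at 3.17 and 7.09 FPKM. The deposited descriptions call the 4 YSL loci transposon proteins.

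Zinc, manganese and cadmium transporters had 2 root and 0 grain calls in 5 compared loci of 8 listed, with medians of -1.78 and -0.48. ZIP7 (LOC_Os05g10940) and ZIP4 (LOC_Os08g10630), zinc transporters, stood at 1.10 and 1.5 FPKM in grain and at 19.8 and 15.1 FPKM in root. HMA2 (LOC_Os06g48720), a zinc and cadmium pump of the vasculature, stood at 0.0834 FPKM in Lalat grain and 2.02 FPKM in Lalat root, but at 6.95 and 7.03 FPKM in Sharbati. The manganese importer NRAMP5 (LOC_Os07g15370) was listed at 0 in grain and stood at 2.45 FPKM in root. Across the iron and zinc lists no compared locus was called higher in grain under any of the 3 scales. After centring 4 loci were called higher in root, among them IRO2 and FRDL1. These were 2 of 7 regulators, 0 of 5 storage, 0 of 4 uptake, 1 of 6 translocation and 1 of 5 zinc, manganese and cadmium loci. Of all loci, 13.8% were called higher in root after centring, and only 3.32% higher in grain as deposited. With so few loci, no lean of metal genes to either organ is drawn from these counts.

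**Figure D4:**
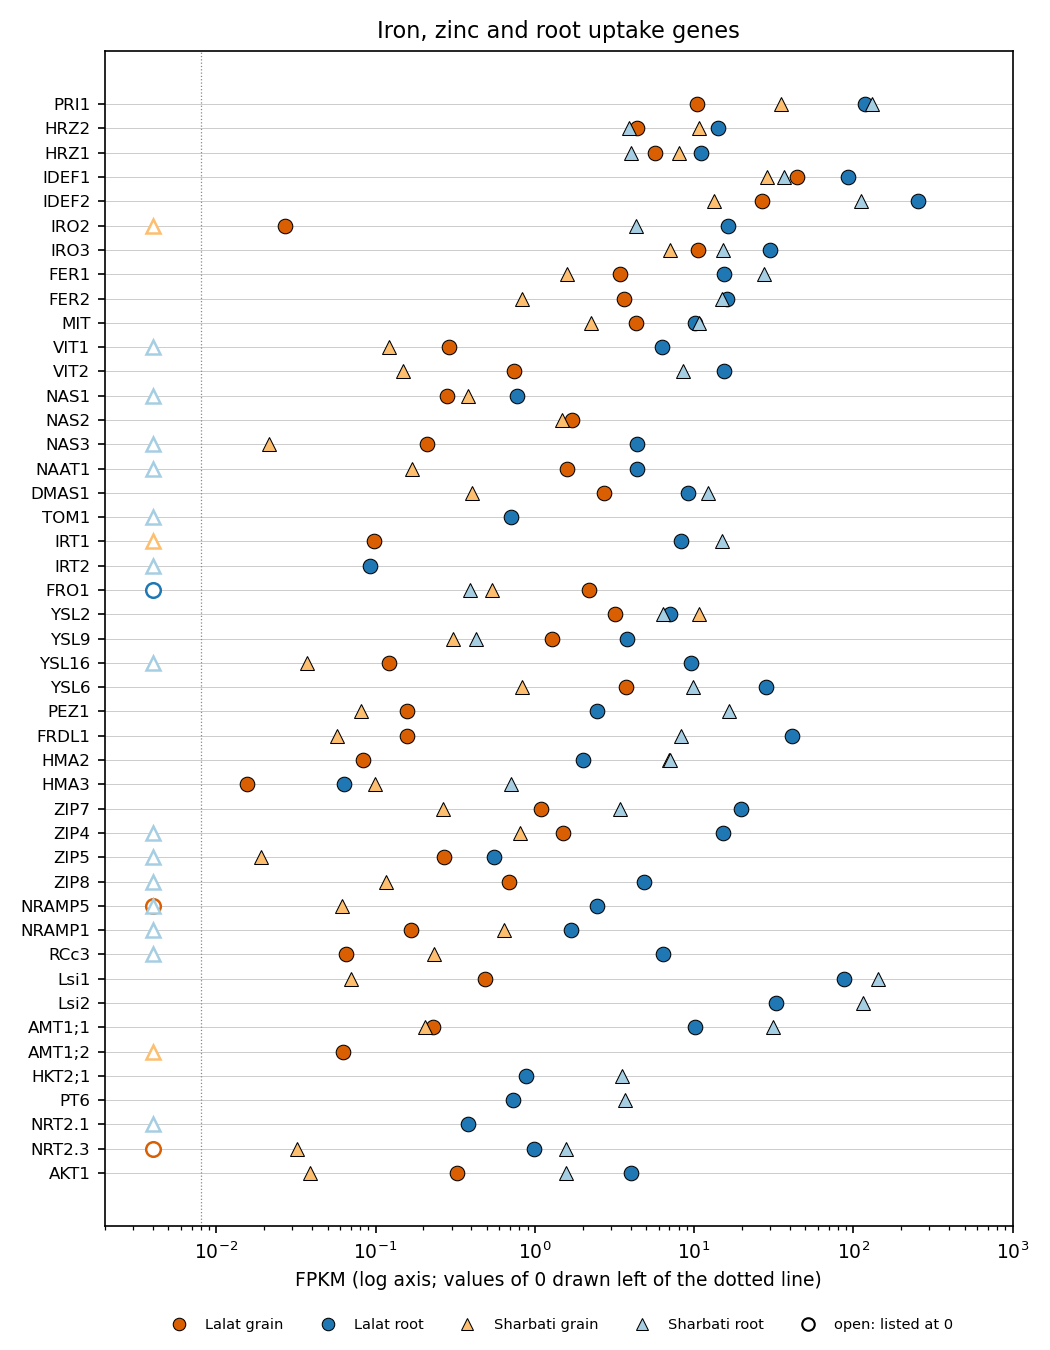
FPKM (log axis) of iron, zinc and root uptake genes in the 4 libraries; circles are Lalat, triangles Sharbati, and open symbols mark a value listed at 0. In Lalat the root circle lies to the right of the grain circle for every gene listed above 0 in both organs.

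Compared genes for uptake of nitrogen, silicon and potassium had higher FPKM in root. Of 4 compared root marker loci, 3 were called higher in root as deposited and 1, Lsi1, after centring. The shares of all loci were 31.8% and 13.8%. AMT1;1 (LOC_Os04g43070), an ammonium transporter, stood at 0.229 FPKM in grain and 10.2 FPKM in root. Lsi2 (LOC_Os03g01700), the silicon exporter paired with Lsi1, stood at 32.5 FPKM in root and was not listed in grain. The potassium channel AKT1 (LOC_Os01g45990) stood at 0.325 and 4.04 FPKM and was not called. AMT1;2 (LOC_Os02g40710) was found in grain only, at 0.0627 FPKM, a level within the range of loci that appear to rest on a single fragment.

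Genes often used as references also had higher FPKM in Lalat root, to unlike extents. Actin ACT1 (LOC_Os03g50885) stood at 66.3 FPKM in grain and 181 FPKM in root, elongation factor EF1A (LOC_Os03g08020) at 371 and 686 FPKM, and the ubiquitin fusion gene LOC_Os01g22490 at 162 and 339 FPKM. GAPDH (LOC_Os04g40950) differed more, at 69.5 and 568 FPKM. Their median was -1.25 as deposited and 0.05 centred, close to that of all loci, with a range from -3.01 to -0.88 as deposited. In Sharbati the log2 differences of ACT1, EF1A, LOC_Os01g22490 and GAPDH were -0.35, 0.19, 0.20 and 1.01. Whether these genes are level between the organs was not tested. Cytosolic ribosomal proteins had 11 root and 0 grain calls in 119 loci, and their median turned from -0.82 as deposited to 0.48 centred, so no direction is given for them.

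Photosynthetic genes were low and close in FPKM in both organs, but lay to the grain side of all loci after centring and by rank. Of 27 compared loci, 0 were called higher in grain and 1 higher in root, with a median of 0.41 as deposited and 1.71 centred. After centring 9 (33.3%) were called higher in grain, against 9.26% of all loci, and 1 higher in root. By rank 20 of the 27 stood higher in grain by 25 points or more, against 15.9% of all loci, and 1 higher in root. LOC_Os01g52240, a chlorophyll a/b-binding protein, was the root call at 0.803 and 41.1 FPKM. The photosystem II locus LOC_Os01g56680 was the highest of the list in grain, at 18.7 FPKM against 13.8 FPKM in root.

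Loci listed above 0 in only 1 organ were mostly at low levels. In grain only, 4569 loci were found, of which 596 reached 1 FPKM, 80 reached 10 FPKM and 6 reached 100 FPKM. In root only, 3423 loci were found, of which 1676 reached 1 FPKM, 482 reached 10 FPKM and 83 reached 100 FPKM. Of these, 4105 and 2317 were in neither table of the other organ, and 464 and 1106 were listed at 0 there. Because storage protein loci are among those missing from the grain tables, a missing locus cannot be read as an absent transcript.

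Transcripts of the grain program were present in the Lalat root library. Of the 72 listed loci of the glutelin, prolamin, allergen, starch, endosperm regulator and oil body lists, 65 stood above 0 in Lalat root, and they summed to 7549 FPKM, or 0.858% of its summed FPKM. Most of that sum lay in the 15 loci that could not be compared, because they were listed at 0 in grain or in neither grain table. These 15 stood between 208 and 695 FPKM in Lalat root and held 0.696% of its summed FPKM. PROLM9 and LOC_Os05g26386, which share 1 root value, are each counted among them.

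The other 50 loci, which could be compared, stood between 0.0647 and 185 FPKM in Lalat root, with a median of 12.3 FPKM, and summed to 1432 FPKM, or 0.163%. Each of these thus lay below the 15 in root. As a percentage of the grain level, the root level of the 50 had a median of 0.571, with the middle 50% of loci between 0.355 and 0.817 and a range from 0.0862 to the 409 of SSA2, the 1 locus higher in root. Loci absent from grain or at 0 there have no such percentage, so these low percentages describe the compared loci and not the lists as a whole.

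In Sharbati root, 21 of the 50 loci were listed at 0 and 29 stood above 0, with a median of 5.14 and a maximum of 29.6 FPKM. The 90% range of loci that appear to rest on a single fragment was 0.223 to 7.14 FPKM in that library, so many of these values may rest on few fragments. Where the transcripts of these loci in the root libraries came from was not tested.

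**Figure D5:**
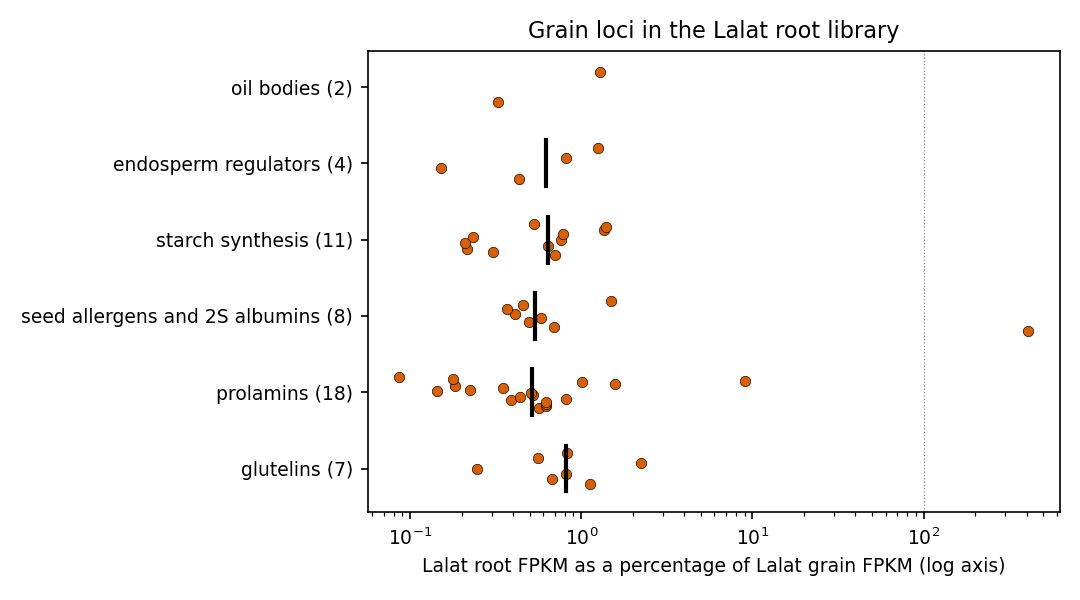
Lalat root FPKM as a percentage of Lalat grain FPKM (log axis) for each of the 50 compared loci of 6 grain lists, with black bars at the medians of lists of 3 or more loci and a dotted line at equal levels. SSA2, at 409%, lies right of the line and PROLM27 stands at 9.03%, while the other loci lie between 0.0862 and 2.24%.

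The same organ comparison in Sharbati gave 752 grain calls (5.95%) and 3425 root calls (27.1%) in 12648 loci. Of the 582 loci called higher in Lalat grain, 254 could be compared in Sharbati; 205 of them (80.7%) were called the same way and 4 the opposite way. Of the 5580 loci called higher in Lalat root, 4233 could be compared; 2579 (60.9%) were called the same way and 18 the opposite way. The tables of an organ hold both cultivars and were processed together, so these counts describe 4 libraries and are not a replicate check.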

How the data were processed

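Poly(A) RNA of grain and root of Lalat and Sharbati was measured, 1 library each. The tools named per the submitters' processing notes are TopHat 1.3.3 with Bowtie 0.12.9, and Cufflinks 1.3.0 with its Cuffdiff program. A build of the genome is not named there. The FPKM values were used as deposited by the authors, who processed the grain pair and the root pair separately and, per the series' design text, kept genes with read counts under 10 out of their differential expression analysis; whether that filter also shaped the tables is not stated. The authors' deposited p-value compares the cultivars within an organ and was used only to mark estimates that may have failed (p-value of 1) and loci that appear to rest on 1 fragment (0.158655). That reading of 0.158655 comes from the values, not from a header, and how it stands to the filter on reads is not known.

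Distinct transcript values of a locus were summed. Loci above 0 in both Lalat libraries and at 1 FPKM or more in at least 1 were compared as log2 of grain over root with a pseudocount of 1 FPKM, which understates differences of low loci. Folds are plain FPKM ratios. Calls needed 4-fold, as deposited or after centring on the median, or 25 percentile points by rank among compared loci. With 1 library per group no statistical test was possible. Scripts ran in Python 3.11.15 with pandas 2.3.3 and were tested on simulated data. Depth is unknown, so no counting interval is given.

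Gene lists came from words in the deposited descriptions or from locus identifiers. The members and lists were chosen with earlier results of these data known. Named loci are a selection from a rule: the up to 3 members of each list furthest each way and the highest in each library, the 10 highest loci of each library, the 10 furthest each way with an informative description, and all loci of the iron, metal, marker and reference lists. Symbols not in the deposited descriptions are those in common use; 57 of 90 such loci in the tables matched a RefSeq entry (assembly ASM3414082v1) of that name nearby on the same chromosome, 29 names were not found and 4 matched elsewhere, among them IRO2 and TOM1. The names CIN1, FRO1 and YSL6 were corrected in this check. Other pseudocounts, filters, scalings, thresholds and treatments of unlisted loci were tried. A search of promoters for motifs was not run, because no promoter sequence was at hand.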

Additional observations from a re-analysis of the deposited data

Results flagged for a closer look

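A few loci had opposite organ differences of 4-fold or more as deposited in the cultivars, 22 in all. Not all of these calls held in Lalat after centring or by rank, as given below. The 6 given here, with 1 library per group, were not tested. All but the bZIP locus were chosen after their values were seen. Loci that appear to rest on a single fragment had a 95th percentile of 7.14 FPKM in Sharbati root, and 4 of the 6 loci lie below that level there, so those values may rest on few fragments.

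The bZIP locus LOC_Os06g45140 had a log2 difference, grain over root, of -2.27 in Lalat, at 63.4 and 309 FPKM, and of 3.26 in Sharbati, at 254 and 25.6 FPKM. The core histone LOC_Os03g17100 had -6.58 in Lalat, at 2.18 and 303 FPKM, and 2.65 in Sharbati, at 14.9 and 1.54 FPKM. The Bet v I family locus LOC_Os12g36880 had -5.30 in Lalat, at 12.1 and 514 FPKM, and 2.82 in Sharbati, at 14.8 and 1.24 FPKM. As deposited, these 3 loci were higher in root in Lalat and higher in grain in Sharbati. After centring, the bZIP locus was not called in Lalat, at -0.96, and by rank it was nearly level, at -3.0 points. The core histone and Bet v I loci were still called higher in Lalat root after centring. By rank the core histone was called, at -54.6 points, and the Bet v I locus was not, at -21.9 points.

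The dehydrin LOC_Os11g26570 had -2.83 in Lalat, at 7.40 and 58.7 FPKM, and 3.46 in Sharbati, at 37.1 and 2.46 FPKM. The NAC locus LOC_Os12g29330 had -2.64 in Lalat, at 5.29 and 38.1 FPKM, and 3.53 in Sharbati, at 41.4 and 2.66 FPKM. After centring, the dehydrin and the NAC locus were not called in Lalat, at -1.53 and -1.33. Nor were they called by rank, at -17.0 and -16.2 points. LOC_Os01g57968, an expressed protein without a named function, had the reverse order: 4.68 in Lalat, at 820 and 31.1 FPKM, and -2.62 in Sharbati, at 262 and 1613 FPKM. In this last locus all 4 values lay far above the levels of loci that appear to rest on a single fragment. It was still called higher in Lalat grain after centring, at 5.98, and by rank, at 25.8 points.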

How the results depend on the processing

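Of 582 grain and 5580 root calls as deposited, 360 and 2836 were counted with a pseudocount of 5 FPKM, 132 and 569 with 10 FPKM required in both libraries, 1624 and 2423 after centring, and 1534 and 3403 after scaling to equal totals without the 100 highest loci. A 2-fold threshold gave 1247 and 10459, and an 8-fold threshold 332 and 2950. By rank, 2796 grain and 2944 root calls became 659 and 704 with 10 FPKM in both libraries, 6104 and 5184 at 10 points, and 676 and 1074 at 50 points. The filter of 10 FPKM in both libraries removes loci low in 1 organ by construction. The median of -1.30 was -1.71 and -0.73 with pseudocounts of 0.1 and 5 FPKM, -1.05 with no filter, -1.58 with 5 FPKM in at least 1 library, -0.79 with 10 FPKM in both, -0.25 after scaling and 0 by construction after centring. The median of glutathione S-transferases turned from -2.36 to 0.26 with 10 FPKM in both libraries, a filter that few low loci pass, and that of the named storage proteins from 7.05 to -7.82 with unlisted loci set to 0, because 7 of the 11 are listed in root only. For single named loci, 2169 values under the alternatives kept direction and side of the threshold, 59 no longer passed it, 41 newly passed it and 31 values below it changed sign; no called value changed sign. No paired analysis was possible because each group has 1 library, and for the same reason no library could be left out. Promoter motifs were not run. Depth limits values below about 0.301 FPKM in Lalat grain and 0.835 FPKM in Lalat root.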

Other observations

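Several gene families of the same comparison were mixed in direction. Lipid transfer and related protease inhibitor proteins had 8 loci called higher in grain and 21 higher in root among 47, with a median of -1.51 as deposited and -0.20 centred. LTPL118 (LOC_Os03g50960) stood at 0.665 FPKM in grain and 800 FPKM in root, the opposite of LTPL165. Cupins had 7 grain and 14 root calls among 34, with a median of -1.40 as deposited, -0.10 centred and 0.09 with 10 FPKM in both libraries. Of 41 bZIP loci, 20 were called higher in root and 1, RISBZ1, higher in grain.

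MADS factors, which specify floral and other organs, had 8 root and 0 grain calls among 20 loci. OsMADS56 (LOC_Os10g39130) stood at 2.59 FPKM in grain and 191 FPKM in root, and OsMADS22 (LOC_Os02g52340) at 31.7 and 25.1 FPKM. Of 40 homeobox loci, 22 were called higher in root and 1 higher in grain. The knotted-1 locus LOC_Os02g08544, of a family that acts in meristems, stood at 1.93 and 120 FPKM. LOC_Os01g48170 was the grain call, at 25.9 and 1.28 FPKM.

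Wall and membrane genes leaned to root in FPKM as deposited, as most loci did. Expansins and xyloglucan enzymes, which loosen the wall, had 15 root calls and 1 grain call among 26, and the expansin LOC_Os03g04020 stood at 1.64 and 221 FPKM. ABC transporters had 19 root and 0 grain calls among 40, and wall-associated and cysteine-rich receptor kinases 11 and 0 among 28. Members of the ZIP family had 6 root and 0 grain calls among 10; LOC_Os05g07210 led at 0.695 and 36.0 FPKM. After centring, root calls were 6 (23.1%), 8 (20%), 3 (10.7%) and 3 (30%) in these lists, against 13.8% of all loci. Grain calls after centring were 1, 0, 1 and 0. The receptor kinases thus had a smaller share of root calls than all loci, and their centred median was -0.14.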
